A study of Homo sapiens with 6 samples.

Results

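The genes described here are the noncoding RNAs that the deposited table of DU145 cells annotates as antisense, as processed transcript or as sense intronic. The rule that picks them uses this annotation and no measured value, and they number 467 of the 10542 listed genes. Of them, 359 were antisense, 59 were processed transcripts and 49 were sense intronic. DU145 is a long established cell line from a human prostate cancer. In this series, DU145-TFEB cells had received a lentivirus that overexpresses TFEB, and DU145-Vector cells had received a blank vector lentivirus as the control. Both were stably transduced lines, so each group stands for 1 such line. From each line 3 libraries of polyadenylated RNA were sequenced. The comparison asks which RNAs differ between DU145 cells with overexpressed TFEB and cells with the vector.

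An antisense RNA is transcribed from the strand opposite to a neighbouring gene, and many start close to the start of a coding gene and run away from it. Processed transcript is an annotation class for spliced RNAs without an open reading frame, and it holds many host genes of small nucleolar RNAs (snoRNAs), which guide the modification of ribosomal RNA and are cut out of the introns of their hosts. A sense intronic RNA lies in an intron of a coding gene and is read in the same direction as that gene. TFEB is a transcription factor of the MiT family that binds the E-box and is known for switching on lysosomal and autophagy genes.

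TFEB was checked first, and its normalized count lay between 6036 and 6325 in all 3 libraries of DU145-TFEB and between 123.9 and 127 in the 3 DU145-Vector libraries, a log2 fold change of 5.62 (limma adjusted p = 3.18e-10). Every value in the table was a read count divided by 1 size factor per library, and the libraries held between 13999961 and 16511477 reads on the listed genes. The table lists genes that already had a deposited adjusted p below 0.05 in these libraries, so a difference between the groups was a condition of being listed and the values near 0 are missing. Fold changes were estimated with limma on log2(normalized count + 1), which understates the change of low genes. Genes were called differentially expressed when limma's adjusted p was below 0.05 and the log2 fold change exceeded 1.5 in size, and log2 fold changes are given as DU145-TFEB over DU145-Vector, with their standard errors (SE). The labels do not say that the libraries of a group came from separate cultures, so p-values measure the spread between these libraries, which may be technical. DU145-TFEB replicate 2 stood farthest from its group, with a chi-square per gene of 14.1 and 27.2 to the other 2 libraries, which were 5.26 from each other. DU145-Vector replicate 2 lay 10.3 and 11.3 from the other libraries of its group, which were 2.97 from each other. The epithelial keratins KRT8, KRT18 and KRT19 and the mesenchymal marker VIM were listed, all lower in DU145-TFEB (-0.78 to -0.38), no blood or fibroblast marker was, and a gene that is not listed has no level here. In bulk RNA, fewer cells that carry an RNA and less of it per cell cannot be told apart.

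Antisense RNAs were mostly higher in DU145-TFEB, and sense intronic RNAs were mostly lower. All 467 RNAs passed the adjusted p of limma, 275 of them higher and 192 lower, and the background over the whole table was 47.6% higher and 52.4% lower. Among the antisense RNAs 234 were higher and 125 lower, and the median log2 fold change was 0.70. Among the processed transcripts 28 were higher and 31 lower, with a median of -0.48 that became 0.01 with quantile normalization. Among the sense intronic RNAs 13 were higher and 36 lower, with a median of -1.72. The median was -0.36 over all listed genes and -0.37 over the 9222 protein-coding genes, and over the 340 listed lincRNAs, another noncoding class, it was 0.69.

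At both cutoffs 133 of the 467 RNAs were differentially expressed, or 28.5%, against 19.1% of all listed genes. These shares were not matched for level, and a gene with few reads had to change more to be listed. Of these, 37 were higher, or 7.92%, against 2.54% of all listed genes, and 96 were lower, or 20.6%, against 16.5%. The antisense RNAs gave 30 higher and 58 lower calls, the processed transcripts 3 and 11, and the sense intronic RNAs 4 and 27. Without DU145-TFEB replicate 2 there were 46 higher and 80 lower calls, and without DU145-Vector replicate 2 there were 35 higher and 83 lower. The split of the calls depended on the scaling, with 68 higher and 77 lower for DESeq2's size factors and 85 higher and 42 lower for quantile normalization. These scalings moved the median log2 fold change of all listed genes by 0.24 and 0.32. Relative to that median, the median of the 467 RNAs lay 0.95 higher with the authors' scaling, 0.95 higher with DESeq2's size factors and 0.95 higher with quantile normalization. A size factor moves all genes of a library nearly alike, so the authors' scaling and DESeq2's size factors had to give the same difference. With a trend against GC content and length removed from each library, the median of the 467 lay 0.26 higher.

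The RNAs were rare beside coding genes, and most calls were made at low levels. Their median normalized count was 50.01, against 557 over all listed genes, and together they took 0.493% to 0.527% of the reads in DU145-TFEB and 0.450% to 0.463% in DU145-Vector. The read share was higher in each DU145-TFEB library than in any DU145-Vector library. Of the 234 RNAs with a mean normalized count of at least 50, 5 were called higher and 12 lower, or 2.14% and 5.13%. Among the 9326 listed genes at that level, 0.761% were called higher and 13.8% lower.

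The change of an RNA went with its base composition. Across the 467 RNAs, which share the same 6 libraries and are not independent replicates, Spearman's rho between log2 fold change and GC content was 0.66. When the listed genes were divided by GC content into 5 bins of equal size, in the lowest bin, below 42.3%, 4 of 80 RNAs were higher in DU145-TFEB, and in the highest bin, above 59.0%, 65 of 68 were. The medians of antisense RNAs and coding genes differed most in the middle bin, from 46.3% to 52.6%. There 66 of 96 antisense RNAs were higher, with a median log2 fold change of 0.71, while 634 of 1745 protein-coding genes were higher, with a median of -0.47. In the same bin 5 of 19 processed transcripts were higher, with a median of -0.82, and 2 of 4 sense intronic RNAs. In the lowest bin the median was -1.66 for antisense RNAs and -1.35 for coding genes, and in the next -1.12 and -1.05. Above the middle bin these medians were 0.84 and 0.51, and in the highest bin 1.04 and 0.64. The lincRNAs were not divided by GC content. Sense intronic RNAs had a median GC content of 40.8% and antisense RNAs one of 52.0%. With the trend against GC content and length removed from each library, the median was -0.03 over the 467 RNAs, 0.06 for antisense, -0.16 for processed transcripts, -0.63 for sense intronic RNAs and -0.29 for all listed genes, so the median of the 467 turned negative. Removing the trend left 18 higher and 52 lower calls. Whether base composition acted on the libraries or on the cells was not tested.

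**Figure D1:**
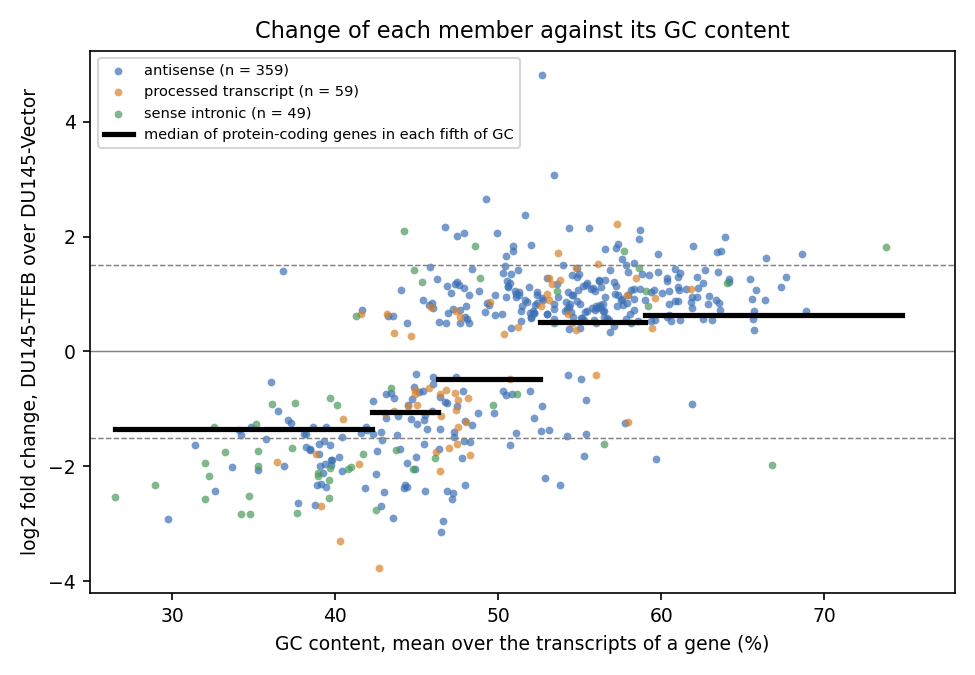
Log2 fold change (DU145-TFEB over DU145-Vector, 3 libraries each) of the 467 RNAs against the GC content of their transcripts in percent, with 1 point for each RNA, coloured by class. Black bars give the median of protein-coding genes in each of 5 bins of GC content, dashed lines mark the fold-change cutoff of 1.5, and few points lie near 0 because listed genes had been selected for a difference. In the middle bin most antisense points lie above 0 while the median of coding genes is -0.47.

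The largest decrease among RNAs with a mean of at least 50 normalized counts was in the processed transcript LINC00641, a long noncoding RNA on chromosome 14 (GRCh38, 21200079 to 21206900). Its normalized counts were 128, 79.2 and 162 in DU145-TFEB and 1084, 1415 and 1050 in DU145-Vector, a log2 fold change of -3.30 (SE 0.24, adjusted p = 4.17e-06 in limma). All 3 DU145-TFEB libraries lay far below the 3 DU145-Vector libraries. AL161891.1, a sense intronic RNA of the gene of the replication factor subunit RFC3, had 19.99, 12.7 and 28.04 normalized counts in DU145-TFEB against 125, 121 and 108 in DU145-Vector. This was a log2 fold change of -2.55, and that of RFC3 itself was -1.30. The antisense RNA AC005034.3 had 51.6, 37.3 and 114 normalized counts in DU145-TFEB against 255, 265 and 277 in DU145-Vector. The spread within DU145-TFEB was wide for this RNA, but the groups did not overlap, and its log2 fold change was -2.12.

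The other processed transcripts with large decreases were AL157392.3 (log2 fold change -2.09), MIR100HG (-1.96) and AC021078.1 (-1.93). AC021078.1 lies within the span of CSNK1A1, the gene of casein kinase 1 alpha, on the same strand, and shares 2886 exonic bases with it. CSNK1A1 had a log2 fold change of -0.95, and reads on the shared bases cannot be assigned to either gene with certainty. Among RNAs with that minimum mean, AC012467.2 was the second lowest antisense RNA (-1.90). AC022150.4, which lies in an intron of the zinc finger gene ZNF83, was the second lowest sense intronic RNA (-1.78). Rarer RNAs of both classes lay lower. The groups did not overlap in any of these RNAs, as in 462 of the 467 and in 99.3% of all listed genes. With the GC and length trend removed, LINC00641 (-2.34) and AL161891.1 (-1.63) stayed past the cutoff, while the other 6 named here were between -1.49 and -0.56.

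Only 5 RNAs at this level were called higher. The processed transcript AC242842.1 on chromosome 1 had 102, 104 and 120 normalized counts in DU145-TFEB against 30.4, 12.7 and 29 in DU145-Vector, a log2 fold change of 2.22 (SE 0.31, adjusted p = 0.000122 in limma). AC068580.3, an antisense RNA within CTSD, had 126, 88.3 and 115 normalized counts in DU145-TFEB against 27.4, 23.4 and 29 in DU145-Vector. The log2 fold change was 2.00. AC116614.1 (1.95), AC062017.1 (1.54) and ADIRF-AS1 (1.53) followed, the last a processed transcript opposite to the adipogenesis gene ADIRF. In all 5 the lowest DU145-TFEB library lay above the highest DU145-Vector library. The rule for naming RNAs required this, and the groups did not overlap in 99.3% of all listed genes. Once the GC and length trend was removed, all 5 remained higher but were under the cutoff of 1.5, at 1.49 for AC242842.1, 0.84 for AC068580.3, 1.14 for AC116614.1, 0.77 for AC062017.1 and 0.88 for ADIRF-AS1.

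**Figure D2:**
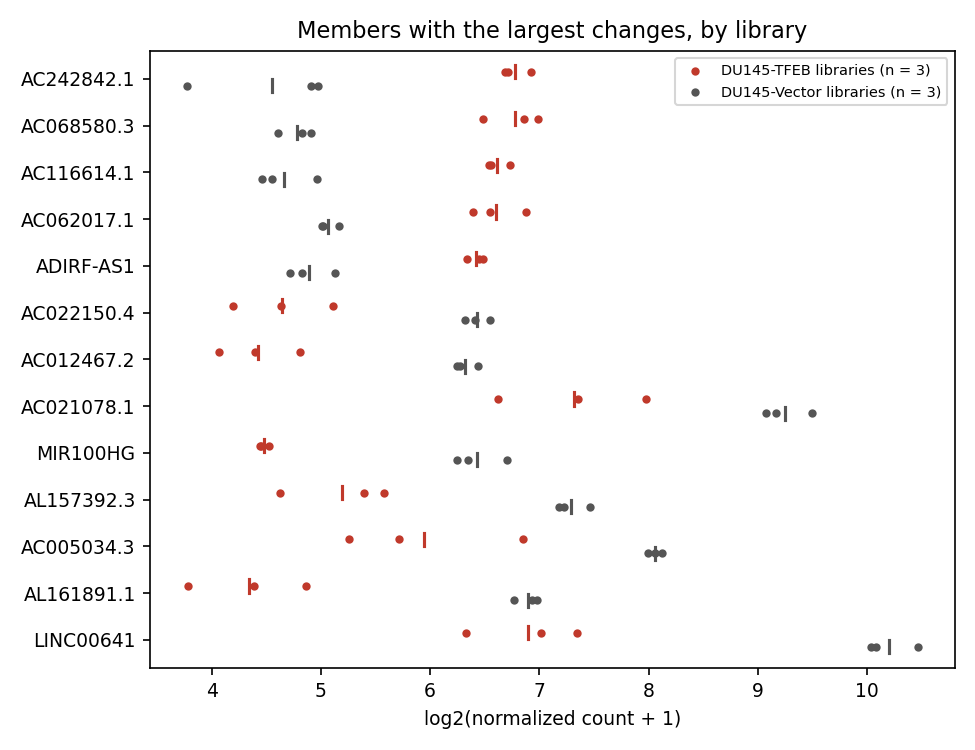
Log2(normalized count + 1) of 13 RNAs in each of the 3 DU145-TFEB (red) and 3 DU145-Vector (grey) libraries, with 1 point for each library and a vertical tick at the group mean. The groups do not overlap in any of the 13, which was a condition for naming them. LINC00641 has the largest change, with a log2 fold change of -3.30.

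In 6 RNAs every library of 1 group was at 0 reads. AL163952.1, a processed transcript, was at 0 in the 3 DU145-TFEB libraries and at 8.82, 17.6 and 13 normalized counts in DU145-Vector, which is at least 4.37-fold lower against a floor of 3 reads per library. AC104958.2, an antisense RNA, was at 0 in the 3 DU145-Vector libraries and at 18.9, 30.03 and 34.3 in DU145-TFEB, which is at least 9.39-fold higher. KCCAT198, ACTA2-AS1 and AC008278.2 were at 0 in DU145-TFEB only and AC104590.1 in DU145-Vector only, and their bounds lay between at least 1.54-fold and 2.30-fold. These bounds cover counting error only.

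Host genes of snoRNAs were among the most abundant of the 467 RNAs, with GAS5 the highest by normalized count. Of 16 snoRNA hosts in the whole table, 13 higher and 3 lower, 10 were of the classes described here. These 10 took between 33.0% and 34.8% of the reads on all 467. Per kilobase of gene length, SNHG6 was the highest of the 10, with a mean of 3214 normalized counts in DU145-TFEB against 2044 in DU145-Vector. Of the 10, 8 rose in DU145-TFEB and 2 fell, and the median of their log2 fold changes was 0.38. Over all listed genes 47.6% were higher, 52.4% were lower and 19.1% passed both cutoffs, with a median of -0.36. DANCR (-0.08) and SNHG7 (-0.37) were negative once the GC and length trend was removed. The median of the 10 hosts was then 0.26, against -0.29 over all listed genes. SNHG14 was the only one of the 10 past the fold-change cutoff, and was not past it with DESeq2's size factors (-1.37), quantile normalization (-1.29), DESeq2 (-1.38) or the trend removed (-0.91).

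GAS5, a growth arrest RNA that carries many box C/D snoRNAs in its introns, had 6772, 6279 and 6745 normalized counts in DU145-TFEB against 5577, 5068 and 5139 in DU145-Vector. The change on the log2 scale was 0.33 (limma adjusted p = 0.00136), a small difference with no overlap between the groups. SNHG6 had 4139, 3882 and 4003 normalized counts in DU145-TFEB against 2788, 2340 and 2518 in DU145-Vector, a log2 fold change of 0.66. SNHG3, the host of the H/ACA snoRNAs SNORA73A and SNORA73B, had 2422, 2193 and 2675 against 1461, 1627 and 1549, a log2 fold change of 0.65. All 3 hosts were higher in every DU145-TFEB library than in any DU145-Vector library. SNHG5 (0.26), LRRC75A-AS1 (0.42) and SNHG10 (0.49) were higher as well, as were DANCR (0.30) and SNHG7 (0.53) with the authors' scaling.

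SNHG1 and SNHG14 went the other way. SNHG1 had 999, 1078 and 1228 normalized counts in DU145-TFEB against 2029, 2348 and 1990 in DU145-Vector, a log2 fold change of -0.95. SNHG14, the long host of the SNORD115 and SNORD116 clusters on chromosome 15, had 415, 421 and 468 against 1282, 1509 and 1220. Its log2 fold change was -1.61 (SE 0.10, adjusted p = 3.26e-06 in limma). SNHG14 runs antisense across UBE3A, the ubiquitin ligase gene of the Angelman region, over 85735 bases that hold 198 exonic bases of both. UBE3A had a log2 fold change of -1.51, and the ratio of SNHG14 to UBE3A within a library changed by -0.11 (SE 0.11, adjusted p = 0.47 in limma).

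The libraries held polyadenylated RNA, and of the snoRNAs of these hosts SNORA73B and SNORD116-1 were listed. SNORA73B was listed with 23.1, 11.8 and 18.7 normalized counts in DU145-TFEB against 31.4, 33.2 and 40 in DU145-Vector, a log2 fold change of -0.96, while its host SNHG3 was higher. SNORD116-1 was listed with 0, 0.91 and 4.15 against 6.86, 14.6 and 8, a log2 fold change of -2.27, the same direction as SNHG14. Of 18 proteins of snoRNA particles and their assembly, 15 were listed, 7 higher and 8 lower, against 47.6% higher and 52.4% lower over all listed genes. The lowest were NOP58 (-1.79), a core protein of box C/D particles, and RPAP3 (-1.57), which helps to assemble them. Fibrillarin (FBL), the methyltransferase of box C/D particles, had a log2 fold change of 0.67, which was -0.19 with the GC and length trend removed.

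**Figure D3:**
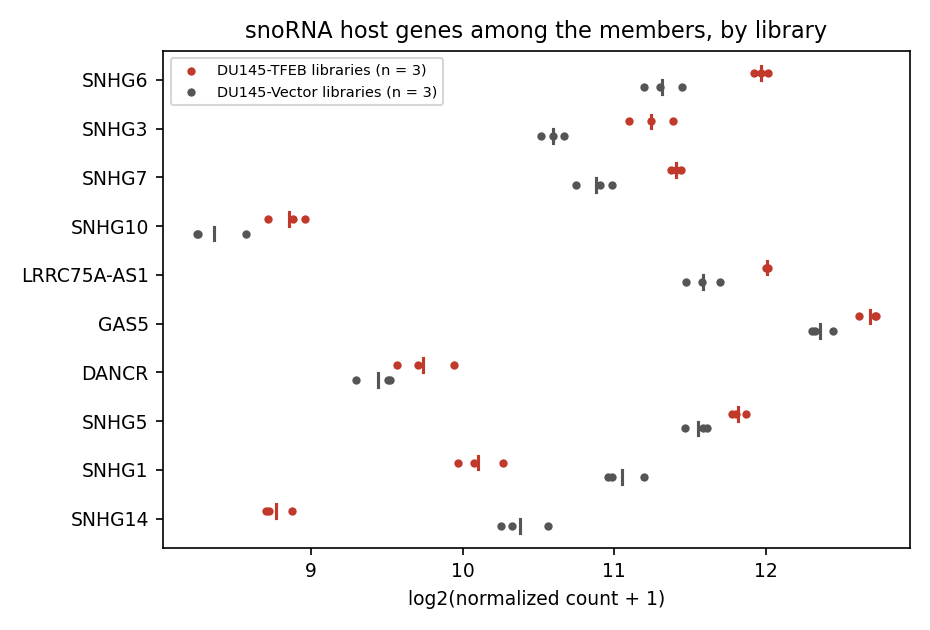
Log2(normalized count + 1) of the 10 snoRNA host genes in each of the 3 DU145-TFEB (red) and 3 DU145-Vector (grey) libraries, with 1 point for each library and a tick at the group mean. SNHG14 (-1.61) and SNHG1 (-0.95) lie lower in DU145-TFEB and the other 8 higher, of which DANCR and SNHG7 turn negative once the GC and length trend is removed.

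At least 8 of the 467 RNAs carry miRNA hairpins within their span and on their strand. Of the 8 counted here, 4 were higher and 4 lower, and the count may not be complete. The hosts with well-studied miRNAs were MIR100HG, MIR17HG and DLEU2, all lower, and AC020916.1, which was higher. Their main mature arms are shown because the hosts differ in direction, and some arms of a host share a seed while others do not. The mature sequences are from RefSeq (GRCh38.p14), and capitals mark the seed, bases 2 to 8. In MIR100HG they lie on the minus strand of chromosome 11 between 122099809 and 122152296, each with its own seed.
hsa-miR-100-5p: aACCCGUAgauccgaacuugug
hsa-let-7a-5p: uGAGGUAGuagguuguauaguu
hsa-miR-125b-5p: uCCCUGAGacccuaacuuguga
In MIR17HG they lie on the plus strand of chromosome 13 between 91350618 and 91351382, and miR-17 and miR-20a share a seed, as do miR-19a and miR-19b.
hsa-miR-17-5p: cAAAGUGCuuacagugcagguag
hsa-miR-20a-5p: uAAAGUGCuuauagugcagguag
hsa-miR-18a-5p: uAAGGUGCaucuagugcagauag
hsa-miR-19a-3p: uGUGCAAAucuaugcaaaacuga
hsa-miR-19b-3p: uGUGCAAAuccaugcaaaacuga
hsa-miR-92a-3p: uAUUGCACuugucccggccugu
In DLEU2 they lie on the minus strand of chromosome 13 between 50049027 and 50049188 and share a seed.
hsa-miR-15a-5p: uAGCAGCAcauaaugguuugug
hsa-miR-16-5p: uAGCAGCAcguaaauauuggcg
In AC020916.1 they lie on the minus strand of chromosome 19 between 13836289 and 13836615, again with different seeds.
hsa-miR-23a-3p: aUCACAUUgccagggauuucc
hsa-miR-27a-3p: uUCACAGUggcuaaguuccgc
hsa-miR-24-3p: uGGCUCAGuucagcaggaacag

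MIR100HG, the host of miR-100, let-7a-2 and miR-125b-1, had 22.1, 20.9 and 20.8 normalized counts in DU145-TFEB against 80.4, 75.1 and 103 in DU145-Vector. This was a log2 fold change of -1.96 (SE 0.20, adjusted p = 2.01e-05 in limma), with tight values in DU145-TFEB, and it was -0.88 with the GC and length trend removed. MIR17HG, the host of the oncogenic miR-17 to miR-92a cluster, had 2.104, 2.73 and 4.15 against 8.82, 21.5 and 10, a log2 fold change of -1.78 that rests on few reads. With the GC and length trend removed it was -0.89 and no longer passed the test.

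DLEU2, the host of miR-15a and miR-16-1 in the region deleted in chronic lymphocytic leukemia, had 29.5, 41.9 and 27.0 normalized counts in DU145-TFEB against 63.7, 96.6 and 49 in DU145-Vector. The log2 fold change was -1.04, which was 0.11 with the GC and length trend removed. AC020916.1, which spans miR-23a, miR-27a and miR-24-2, had 1046, 985 and 1016 against 545, 491 and 606, a log2 fold change of 0.90. ENTPD1-AS1 was lower (-0.83), and MIR762HG (1.14) and AC243964.2 (1.30) were higher, as was DANCR. The mature miRNAs themselves were not measured by these libraries.

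Among 60 antisense and processed RNAs with a literature of their own, 14 were members of the 3 classes, 6 higher and 8 lower, and 0 passed the fold-change cutoff. Over all listed genes 47.6% were higher and 52.4% lower, and both cutoffs were passed by 19.1% of them and by 28.5% of the 467. CASC2, described as a tumour suppressor, was the lowest of the 14 (-1.40). It had 28.4, 20.02 and 31.2 normalized counts in DU145-TFEB against 76.5, 79.0 and 58 in DU145-Vector. OIP5-AS1, an abundant cytoplasmic RNA also called cyrano, had 1459, 1108 and 1559 against 2902, 3046 and 3007, a log2 fold change of -1.13. PSMA3-AS1 had a log2 fold change of -1.15 and NNT-AS1 one of -0.85, and in both cases the coding gene on the other strand was lower too, with -0.37 for PSMA3 and -0.62 for NNT. Once the GC and length trend was removed, CASC2 was at -0.43 and no longer passed limma's test (adjusted p = 0.085), and NNT-AS1 was the lowest of the 14, at -1.40. BACE1-AS, antisense to the beta-secretase gene, had -0.72, HCG18 had -0.80 and MCM3AP-AS1 had -0.69, and the last 2 no longer passed with the trend removed (-0.22 and -0.35). LOXL1-AS1 had -0.42, which was 0.06 with quantile normalization. ZEB1-AS1 (0.58) and PXN-AS1 (0.60) were higher with the authors' scaling and negative with the GC and length trend removed (-0.18 and -0.12).

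The remaining 4 of the 14 came from the HOX clusters, which encode the homeodomain factors of body patterning, and all 4 were higher. HOXA11-AS had 105, 82.8 and 92.4 normalized counts in DU145-TFEB against 32.3, 35.1 and 38 in DU145-Vector, a log2 fold change of 1.38 (SE 0.18, adjusted p = 8.35e-05 in limma). HOXA11 itself, whose 5-prime end it overlaps by 717 bases, had a log2 fold change of 0.64. HOTAIRM1, a myeloid RNA at the start of the HOXA cluster, had 143, 202 and 213 against 78.4, 101 and 133, a log2 fold change of 0.84. HOXA-AS3 (1.07) and HOXB-AS1 (0.74) were higher as well. After these values were seen, the other members with HOX symbols were looked up, which gave 8 in all, each higher with the authors' scaling, from 0.74 to 1.84. With the GC and length trend removed, the 4 named first no longer passed limma's test, with HOXA11-AS at 0.42 (adjusted p = 0.081), HOTAIRM1 at 0.44 (0.089), HOXA-AS3 at 0.28 (0.42) and HOXB-AS1 at 0.15 (0.51). Of the other 4, HOXC-AS2 was at -0.07, and HOXC-AS1 (0.51, adjusted p = 0.042) still passed.

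The deposited positions, equal to those of GENCODE 29 on GRCh38, placed a protein-coding gene on the opposite strand of 326 of the 467 RNAs. For 238 of them at least 1 such coding gene was itself listed, which gave 253 pairs. The member and the coding gene changed in the same direction in 203 pairs, or 80.2%, and in 83.4% of the 865 pairs of 2 listed coding genes on opposite strands. Both were higher in 107 pairs and both lower in 96, the member was higher and the coding gene lower in 41, and the reverse held in 9. With the GC and length trend removed, 157 of the 253 pairs shared a direction. Exons of the member and the coding gene overlapped in 193 pairs. The library kit does not mark strand as far as the sources used here say, so reads on overlapping exons cannot be told apart. The direction was shared in 151 of the 193 pairs with overlapping exons, or 78.2%, and in 52 of the 60 pairs without, or 86.7%.

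The ratio of the member to its coding gene within a library depends little on the size factor of that library, which acts only through the 1 added to each count, and with DESeq2's size factors 52 ratios changed in place of 50. At the same cutoffs, this ratio changed in 50 of the 253 pairs, or 37 higher and 13 lower in DU145-TFEB. The background was 12.8% of all 1250 opposite-strand pairs of listed genes, which include the 253 (7.76% higher and 5.04% lower for the first gene of a pair). In pairs without a member the first gene was the one at the lower position, so their direction is arbitrary. Of the 865 pairs of 2 listed coding genes, the ratio was called higher in 42 and lower in 31. Most of the pairs with a higher ratio had overlapping 5-prime ends. In that arrangement 28 of 102 pairs had a higher ratio and 1 a lower one, the member was higher and the coding gene lower in 30, and 70 shared a direction. Where the 3-prime ends overlapped, 50 of 58 pairs shared a direction and the ratio was called higher in 1 and lower in 2. Where the member lay inside the coding gene, 67 of 76 shared a direction and the ratio was called higher in 6 and lower in 10. Differences between the arrangements were not tested.

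Members with overlapping 5-prime ends also had the higher GC content in 64 of their 102 pairs, with a median of 52.5% against 47.9% in the coding genes. With the GC and length trend removed, the ratio was called higher in 8 of the 102 pairs and lower in 3, and 7 of the 28 higher calls remained. The median change of the ratio in these pairs was 0.59 before and 0.54 after the trend was removed. In 22 of the 30 pairs with a higher member and a lower coding gene, both directions were kept.

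**Figure D4:**
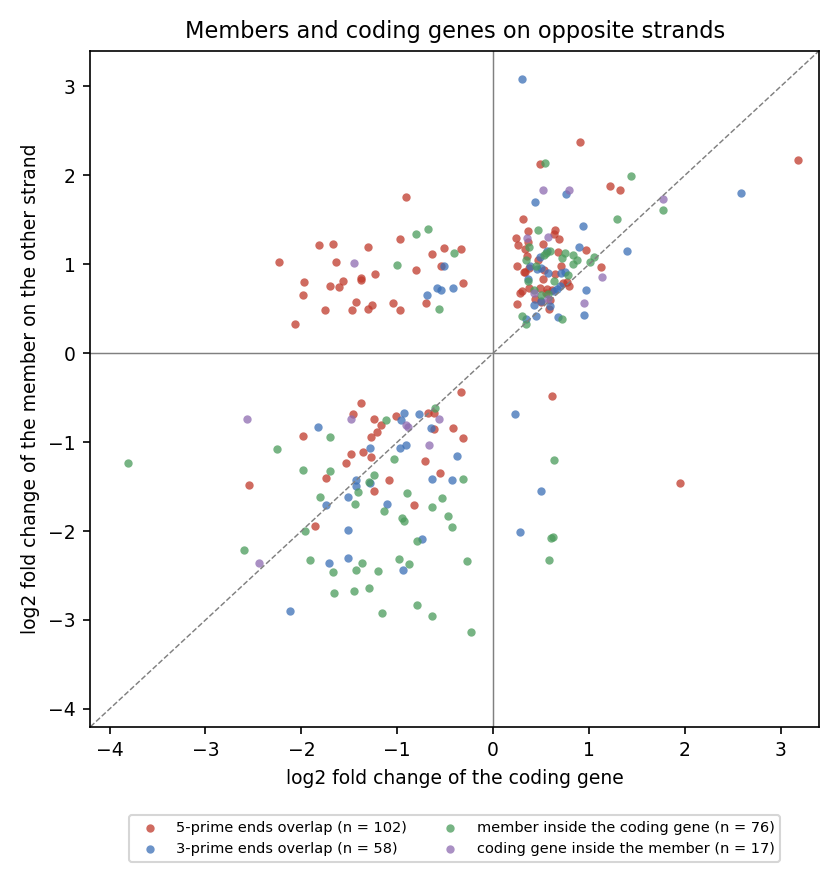
Log2 fold change of the member (vertical) against that of the protein-coding gene on the opposite strand (horizontal) for the 253 pairs, with 1 point for each pair, coloured by arrangement, and a dashed line where both changes are equal. Of the 41 pairs at the upper left, where the member was higher and the coding gene lower, 30 are red points with overlapping 5-prime ends.

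The 4 pairs with the largest called change of the ratio and a mean of at least 50 normalized counts in both genes all had overlapping 5-prime ends. DICER1-AS1, on chromosome 14 (GRCh38, 95157645 to 95179933), had 163, 111 and 148 normalized counts in DU145-TFEB against 67.6, 66.3 and 69 in DU145-Vector. DICER1, which encodes the ribonuclease that cuts miRNA precursors, had 289, 188 and 428 against 1268, 1635 and 1190. The antisense RNA was higher in every DU145-TFEB library and the coding gene lower. The log2 fold changes were 1.03 and -2.24, and the log2 ratio rose by 3.27 (SE 0.23, adjusted p = 1.27e-06 in limma). The pair shared 80 exonic bases. These values include the GC and length trend, and with it removed 7 of the 28 higher calls in this arrangement remained.

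KMT2E-AS1 had 275, 267 and 274 normalized counts in DU145-TFEB against 125, 106 and 118 in DU145-Vector, a log2 fold change of 1.22 that was 0.11 and no longer passed the test with the GC and length trend removed. KMT2E, a chromatin regulator of the MLL family, had 319.9, 235 and 390.4 against 1006, 1220 and 1055, a log2 fold change of -1.82. The log2 ratio rose by 3.04 (SE 0.20, adjusted p = 7.27e-07 in limma), and by 0.97 with the trend removed. In AC005076.1 and DMTF1, a cyclin D binding transcription factor, the log2 fold changes were 0.80 and -1.98, and the ratio rose by 2.78. In AL163051.1 and PAPOLA, the canonical poly(A) polymerase, they were 1.03 and -1.64, and the ratio rose by 2.67. In all 4 pairs the ratio was higher in each DU145-TFEB library than in any DU145-Vector library.

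**Figure D5:**
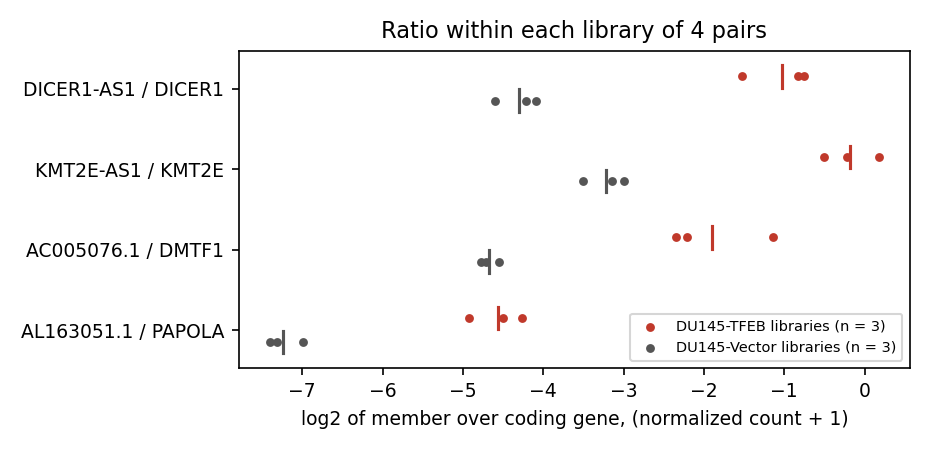
Log2 of (member + 1) over (coding gene + 1), in normalized counts, within each of the 3 DU145-TFEB (red) and 3 DU145-Vector (grey) libraries for 4 pairs with overlapping 5-prime ends, with 1 point for each library and a tick at the group mean. The groups do not overlap, and the largest shift is 3.27 in DICER1-AS1 and DICER1.

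Several RNAs named above had a listed coding gene on the other strand. GAS5 overlaps the 5-prime end of ZBTB37, a zinc finger gene, without shared exons, and ZBTB37 had a log2 fold change of -2.07, so that the ratio of GAS5 to ZBTB37 rose by 2.40. ZEB1-AS1 overlaps the start of ZEB1, a transcription factor of epithelial to mesenchymal transition, which had -1.43, and the ratio rose by 2.01. AC068580.3 lies inside CTSD, which encodes the lysosomal protease cathepsin D, and both were higher. CTSD had 3438, 3251 and 3246 normalized counts in DU145-TFEB against 1353, 1115 and 1221 in DU145-Vector, a log2 fold change of 1.43. The ratio of AC068580.3 to CTSD changed by 0.56 (limma adjusted p = 0.045), below the cutoff of 1.5, and the pair shared 493 exonic bases. AC068580.1, a sense intronic RNA of the same gene that was named after its values were seen, had a log2 fold change of 1.82, which was -0.02 with the GC and length trend removed.

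The 13 pairs with a lower ratio rested on low counts of the member, with means of 2.93 to 44.3 normalized counts over the 6 libraries. SEMA3F-AS1, which overlaps the 5-prime end of SEMA3F, the gene of a secreted semaphorin, had the largest decrease of the ratio. The antisense RNA had a log2 fold change of -1.46 at a mean of 10.8 normalized counts, while SEMA3F had 1.94, and the ratio changed by -3.41. AC010761.3, inside the elongation factor gene SUPT6H, had -3.14 against -0.23 for SUPT6H, at a mean of 7.07 normalized counts. Both pairs were chosen after their values were seen.

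Sense intronic RNAs mostly went down with the gene that holds them. Of the 49, 33 had a listed coding gene on the same strand, and 29 of these shared its direction, 25 with both lower and 4 with both higher. That was 87.9%, against 83.4% of the pairs of 2 listed coding genes on opposite strands. With the GC and length trend removed, 23 of the 33 shared a direction, or 69.7%, against 63.0% of those coding pairs. With the authors' scaling, the median log2 fold change was -1.78 for the intronic RNAs and -0.92 for their hosts. Among the 25 the intronic RNA had the lower value in 20. Examples are ALMS1-IT1 (-1.74) in ALMS1 (-2.21), a centrosomal protein gene, BACH1-IT1 (-2.76) in BACH1 (-1.88), a heme-responsive repressor gene, and ACAP2-IT1 (-2.33) in ACAP2 (-1.87). GABPB1-IT1 went against its host, with 499, 459.5 and 463 normalized counts in DU145-TFEB against 319.5, 294 and 318 in DU145-Vector, a log2 fold change of 0.61, while GABPB1 had -0.69. These examples were chosen after their values were seen. The median normalized count was 15.01 for the 33 intronic RNAs and 829 for their hosts, the median GC content was 41.0% and 45.3%, and reads from unspliced RNA of the host cannot be told apart from reads of the intronic RNA.

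TFEB binds the E-box core CACGTG, which reads the same on both strands, and its preferred site TCACGTGA holds that core. Promoter windows of RefSeq (GRCh38.p14), from 250 bases before to 50 bases after a start, were matched by symbol to 121 of the 467 RNAs, in 151 windows. The core was present in 12 of these windows, or 7.95%, and in 7.26% of all 35116 windows in the table. Of the 12 RNAs with a core, 9 were higher and 3 lower, and their median was a log2 fold change of 0.85, and of the 109 without it 71 were higher and 38 lower, with a median of 0.61. The site TCACGTGA was found in the window of ALOX12-AS1 alone among the 121, and in 0.98% of all windows. It is shown because it is the only such match, with the 2 occurrences in capitals, on the minus strand at chr17:7012340-7012399.
ALOX12-AS1: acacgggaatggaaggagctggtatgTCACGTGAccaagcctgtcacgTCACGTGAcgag
ALOX12-AS1 is antisense to the gene of an arachidonate lipoxygenase. It had 121, 98.3 and 126 normalized counts in DU145-TFEB against 62.7, 69.2 and 57 in DU145-Vector, a log2 fold change of 0.85 (SE 0.17, adjusted p = 0.00104 in limma). The groups did not overlap. Binding of TFEB was not measured in these libraries, and a match of letters is no site.

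Short noncoding transcripts and RNAs from upstream of promoters are removed in the nucleus by the RNA exosome and its adaptors, and spliced RNAs with early stop codons by nonsense-mediated decay. Of 22 genes of the nuclear exosome and its adaptors 17 were listed, 4 higher and 13 lower, 3 of them past the fold-change cutoff. The lowest were DIS3 (-2.35), its catalytic subunit, and RBM7 (-1.63), a subunit of the adaptor that targets promoter upstream transcripts. Of 18 decay factors 13 were listed, 3 higher and 10 lower, 5 of them past the cutoff. The lowest were UPF2 (-2.78) and SMG1 (-2.20), the kinase that acts on UPF1, while UPF1 itself was higher (0.97). Over all listed genes 52.4% were lower and 16.5% passed the cutoff downwards. With the GC and length trend removed, DIS3 was at -1.53, RBM7 at -0.48, UPF2 at -2.04, SMG1 at -1.10 and UPF1 at 0.27. The median was then -0.26 for the listed exosome genes, -0.51 for the listed decay factors and -0.29 over all listed genes. Whether these changes bear on the noncoding RNAs was not tested.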

How the data were processed

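The polyadenylated RNA of 3 libraries of DU145-TFEB and 3 of DU145-Vector is held in a table of 10542 genes, of which 467 have the annotation described here. The members and the gene lists were chosen with earlier results of these data known. Per the labels, the authors' tools were CASAVA 1.8, HISAT2 2.1.0 and edgeR on GRCh38, while the paper names DESeq2 for differential expression. The counting program, annotation release and strand setting are not given in the sources used here. The deposited values of 5 libraries are a signal, read counts divided by 1 size factor per library, and those of DU145-Vector replicate 3 are counts with a factor of 1. Dividing by the smallest step returned whole reads for 100% of values, within 0.01. The deposited columns of log2 fold changes and p-values hold the authors' own comparison and were not used, except that every listed gene was checked to have a deposited adjusted p-value below 0.05.

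Log2(normalized count + 1) was fitted with limma 3.58.1 with trend in R 4.3.3 over all 10542 genes, with Benjamini-Hochberg adjustment, and genes past an adjusted p of 0.05 and an absolute log2 fold change of 1.5 were called. The log2 ratio of both genes of a pair was fitted likewise over 1250 opposite-strand pairs with at least 1 overlapping base. An exact permutation test of 3 against 3 libraries cannot go below p = 0.1. Positions, GC content and exons came from GENCODE 29 on GRCh38, with positions for 10542 genes. A loess curve (span 0.5) against GC content and length, fitted per library, gave the values with the trend removed. Alternatives were other pseudocounts, a minimum of 10 reads, other scalings, DESeq2 1.42.0 and edgeR 4.0.16 on the recovered reads, a cutoff of 1, a replicate block and leaving out each library. Named members passed both cutoffs with a mean of at least 50 normalized counts and no overlap between groups, and were the 6 highest and 6 lowest and the 2 highest and lowest of each class, or belonged to the lists of hosts and studied RNAs. Named pairs were the 4 with the highest and the 4 with the lowest called ratio with both means at least 50, and none was low. Lists of coding genes are given by counts and their 2 largest changes. On simulated counts of 10542 genes, each tool recovered 200 of 200 changed genes, which checked the code only. Recovery of RNAs with few reads, or under a GC trend or a shift in scaling, was not tested.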

Additional observations from a re-analysis of the deposited data

How the results depend on the processing

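Calls are given as higher and lower. A pseudocount of 5 left 9 and 38 calls among the 467 RNAs, 7 and 16 in antisense, 1 and 8 in processed transcripts and 1 and 14 in sense intronic RNAs. The medians were then 0.66 for antisense and -1.14 for sense intronic RNAs. With at least 10 reads in every library, 318 RNAs gave 9 and 18 calls (antisense 6 and 8, processed 2 and 6, sense intronic 1 and 4). The medians were 0.70 for all and 0.74, -0.075 and -0.73 for the classes. There were 32 changed ratios and 131 pairs of shared direction, from fewer genes tested. DESeq2's size factors gave 68 and 77 calls (by class 55 and 43, 6 and 9, 7 and 25). The medians were 0.84, 0.94, -0.24 and -1.52, and 0 snoRNA hosts were called, with a median of 0.62. Quantile normalization gave 85 and 42 calls (70 and 20, 7 and 6, 8 and 16), medians of 0.92, 1.01, 0.0098 and -0.99, and 0 called hosts with a median of 0.50. Removing the GC and length trend gave 18 and 52 calls (14 and 38, 0 and 6, 4 and 8). The medians were -0.032, 0.061, -0.16 and -0.63, and 0 hosts were called, with a median of 0.26. DESeq2 gave 73 and 76 calls (60 and 44, 6 and 9, 7 and 23). Its medians were 0.84, 0.94, -0.25 and -1.49, and it called 0 hosts, with a median of 0.61. The edgeR fit gave 50 and 97 calls, with medians of 0.68 for all, 0.78 for antisense and 0.45 for hosts. A cutoff of 1 gave 127 and 145 calls (106 and 97, 10 and 19, 11 and 29). Leaving out 1 library gave 35 to 46 higher and 80 to 109 lower calls, and medians of 0.57 to 0.61 for all, 0.64 to 0.72 for antisense, -0.58 to -0.42 for processed and -1.77 to -1.32 for sense intronic RNAs, the last without DU145-TFEB replicate 2. Directions reversed with the trend removed in DLEU2 (0.11), DANCR (-0.081), SNHG7 (-0.37), ZEB1-AS1 (-0.18) and PXN-AS1 (-0.12), and with quantile normalization in LOXL1-AS1 (0.056). The cause of these shifts was not tested. Same-numbered libraries did not deviate together (correlations of -0.018, -0.246 and -0.141), and a fit with the replicate number as a block left the 37 and 96 calls and gave 49 changed ratios against 50. Depth limits the RNAs below 10 reads, where a few reads set the fold change.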
